A study of Mus musculus with 6 samples.

Results

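The phagocyte NADPH oxidase and the inducible nitric oxide synthase were followed through 6 genes, Cybb, Cyba, Ncf1, Ncf4, Hvcn1 and Nos2, in mouse macrophages with and without cadherin-11. The 6 were chosen by name, for what their proteins do, from the 42256 genes of the count table, and all 6 were found there. RNA-seq had been carried out on macrophages grown from the marrow of adult males on a mixed 129S1/Sv x C57BL/6 background, either CDH11+/+ (wild type, WT, 3 libraries) or CDH11-/- (knockout, KO, 3 libraries). Marrow cells of both genotypes were grown for 7 days with 20% L929-conditioned medium, a source of the macrophage growth factor CSF1, and 10% serum, with medium added on day 3, and received no stimulus before RNA was taken. The CDH11-/- genotype is that of the whole animal, so it was carried by the marrow progenitors and by the tissue around them as well. The title of the series sets this work within the immune response of atherosclerosis.

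The NADPH oxidase of phagocytes, NOX2, moves electrons from cytosolic NADPH across the membrane to oxygen and so makes superoxide. Its membrane core pairs the catalytic subunit encoded by Cybb with the smaller subunit encoded by Cyba, each of which stabilises the other. At rest cytosolic subunits, among them the organiser Ncf1 and the adaptor Ncf4, are apart from the core, and after phosphorylation they join the core together with a Rac GTPase. Hvcn1 forms the voltage-gated proton channel that balances the charge the oxidase carries out of the cytosol. Nos2 makes nitric oxide from arginine, and macrophages usually switch it on only after interferon-gamma or microbial products. Both enzymes serve the killing of microbes, and oxidants of the oxidase are also studied in the vessel wall.

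The libraries held 27170943 to 37113689 counts. Values are CPM, counts relative to the library total after TMM scaling, given for WT 1, WT 2 and WT 3 and then for KO 1, KO 2 and KO 3. Numbers 1 to 3 only name the libraries and pair nothing across genotypes. The design text mentions 3 WT and 4 KO animals, while the labels name no animal for any library, so the tests reflect only how far these libraries vary, which may be technical. Cdh11 itself had 6, 11 and 6 counts in WT and 6, 4 and 5 in KO, too few in either genotype to check the labels. The words rose and fell are kept for genes where the edgeR quasi-likelihood test across 12862 genes gave a Benjamini-Hochberg adjusted p under 0.05.

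Ncf1 and Cybb fell in KO macrophages and Cyba rose, while Ncf4 and Hvcn1 did not pass the test and Nos2 was at the detection floor in both genotypes. Of the 5 members tested, 3 were called, where 35.2% of all genes tested were called. Of the same 5 members 1 was higher, against 18.5% of all genes tested, and 2 were lower, against 16.8% of all genes tested. The genotypes did not overlap for the 3 called of the 5 members tested, and did not overlap for 53.4% of all genes tested. All KO libraries lay below all WT libraries for 2 members and for 26.4% of all genes, and above them for 1 member and for 27.0% of all genes. In RNA from whole cultures, fewer expressing cells and less RNA per cell cannot be told apart.

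**Figure D1:**
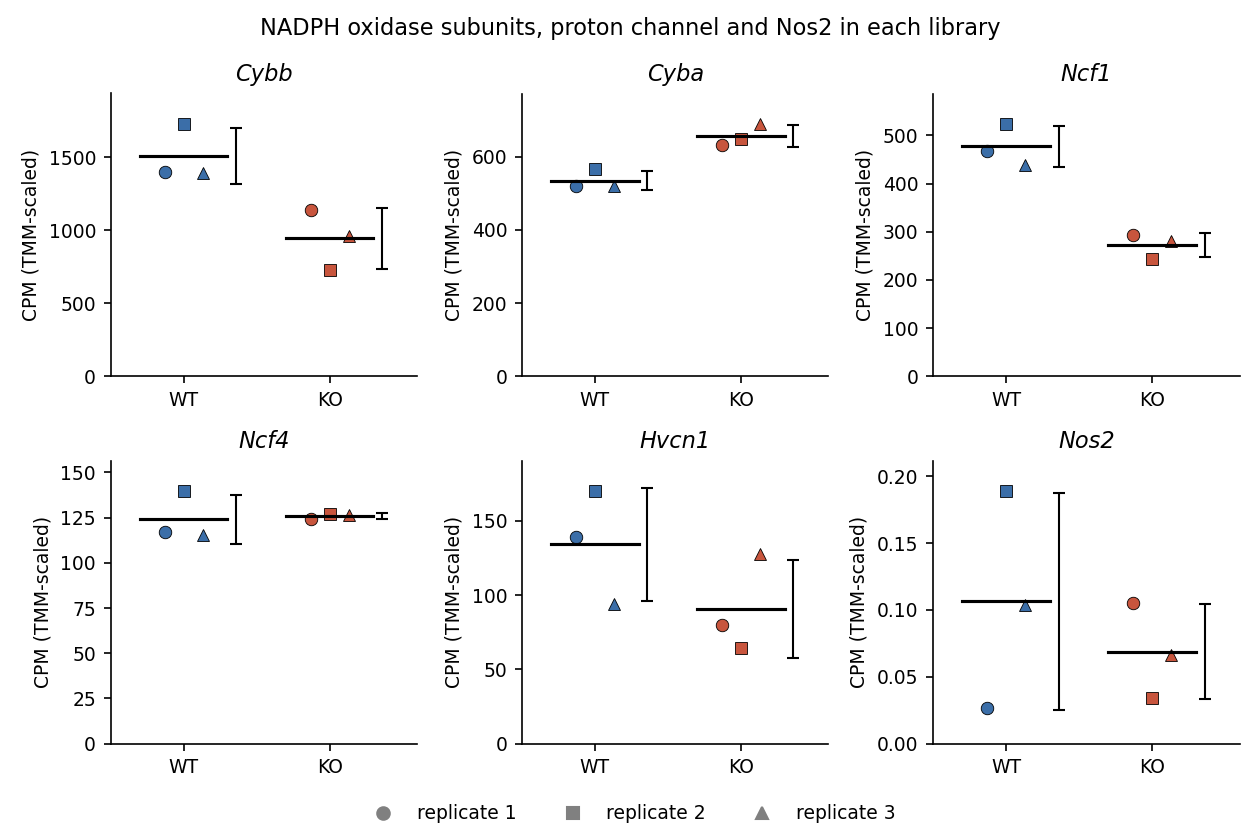
CPM after TMM scaling (vertical axis, starting at 0, a different range in each panel) of the 6 genes in each WT and KO library. Points are libraries, horizontal lines are means and the bars beside them show 1 SD over 3 libraries. For Cybb and Ncf1 all KO points lie below all WT points, for Cyba all lie above, and for Ncf4, Hvcn1 and Nos2 the genotypes overlap.

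Ncf1 (ENSMUSG00000015950, GRCm38 chr5:134220053-134229625, minus strand) encodes the cytosolic organiser that carries the other cytosolic subunits to the membrane. It stood at 468, 524 and 439 CPM in WT and 292, 244 and 281 CPM in KO. Every KO library was far below every WT library, and the spread within a genotype was small beside the gap. The mean went from 477 ± 43.3 to 272 ± 25.2 CPM (SD, n = 3 each), a log2 fold change of -0.81 (SE 0.10), or 0.571 times the WT level. The adjusted p by edgeR's quasi-likelihood test was 0.00484, and 3.5% of all genes tested had a lower log2 fold change. Ncf1 passed the test in each of the 16 alternative analyses, with log2 fold changes of -0.87 to -0.66. Its exons share 408 bases with Gtf2ird2 on the opposite strand, a gene with only 8.97 to 12.8 CPM in the 6 libraries.

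Cybb (ENSMUSG00000015340, chrX:9435252-9487771, minus strand) encodes the catalytic subunit, the one that binds NADPH and carries the electrons. It was measured at 1403, 1731 and 1395 CPM in WT, against 1142, 728 and 963 CPM in KO. The highest KO library, KO 1, stayed below the lowest WT library, WT 3, but KO 2 and KO 1 lay far apart. The means were 1510 ± 192 and 944 ± 208 CPM (SD, n = 3 each), with a log2 fold change of -0.68 (SE 0.17, 95% interval -1.09 to -0.27). That is 0.625 times the WT level, at an adjusted p of 0.0254 by edgeR's quasi-likelihood test. The call for Cybb was lost without WT 1 (-0.73, adjusted p 0.0622), without WT 2 (-0.57, 0.0774) or without KO 3 (-0.70, 0.0753), all by edgeR. Without WT 1 or without KO 3 the log2 fold change itself did not shrink. The number of all genes called, 4532 with all libraries, was 1979 without WT 1 and 2379 without KO 3. Without WT 2 and KO 2 together the log2 fold change was -0.41, with an adjusted p of 0.0583.

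Cyba (ENSMUSG00000006519, chr8:122424776-122432930, minus strand) encodes the partner of the catalytic subunit in the membrane and the docking site for the organiser. Its values were 520, 566 and 519 CPM in WT and 633, 650 and 691 CPM in KO. Each KO library exceeded each WT library, in the direction opposite to Cybb. From 535 ± 26.8 to 658 ± 29.6 CPM (SD, n = 3 each) the log2 fold change was 0.30 (SE 0.07), a 1.23-fold rise, with an adjusted p of 0.0153 by edgeR's quasi-likelihood test. A higher log2 fold change was found for 22.6% of all genes tested. The call for Cyba was lost without WT 1 (0.28, adjusted p 0.0670) or without KO 3 (0.26, adjusted p 0.0620) in the same edgeR test. Cyba lies 19.6 Mb from Cdh11 on the same chromosome. Of the 689 genes tested on chromosome 8, 37.2% were called and 21.8% were called higher, and whether the surrounding segment differs in strain origin between the genotypes was not tested.

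Promoter windows are shown for every member that had one, and these were also the 3 members that passed the test. No member that was not called had a window to compare with them. RefSeq start sites on GRCm38.p6 gave a window for 3 of the 6 members, and these were Cybb, Ncf1 and Cyba. For Cybb the RefSeq start lies inside the gene span given above, whose first base on the minus strand is 9487771. Each window is the 250 bases before the start, printed 5′ to 3′ on the strand of the gene, at chrX:9469325-9469574, chr5:134229626-134229875 and chr8:122432941-122433190 (minus strand for all 3). Capitals mark the letters GAAANNGAAA (interferon-response type) and GGGCGG (Sp1 type), searched on both strands, so that a match on the other strand appears as its reverse complement.
Cybb: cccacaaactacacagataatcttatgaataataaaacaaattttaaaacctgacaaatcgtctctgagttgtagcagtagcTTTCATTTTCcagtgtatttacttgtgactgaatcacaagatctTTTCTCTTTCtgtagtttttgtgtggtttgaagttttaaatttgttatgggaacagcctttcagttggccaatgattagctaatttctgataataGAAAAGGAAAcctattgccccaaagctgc
Ncf1: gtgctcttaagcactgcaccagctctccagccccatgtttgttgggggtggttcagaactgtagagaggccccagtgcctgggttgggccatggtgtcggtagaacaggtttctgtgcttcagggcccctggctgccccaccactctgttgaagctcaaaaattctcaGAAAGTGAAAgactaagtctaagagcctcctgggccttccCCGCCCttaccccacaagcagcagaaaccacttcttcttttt
Cyba: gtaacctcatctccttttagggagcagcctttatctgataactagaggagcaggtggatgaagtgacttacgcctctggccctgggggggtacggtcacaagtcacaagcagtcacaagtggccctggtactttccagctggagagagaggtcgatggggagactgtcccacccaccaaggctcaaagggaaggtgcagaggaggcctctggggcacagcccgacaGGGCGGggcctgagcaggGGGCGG
The letters GAAANNGAAA occurred 3 times in the Cybb window, at -168 to -159 and -124 to -115 on the other strand and at -29 to -20 on the printed strand, counting -1 as the last base before the start. Ncf1 held them once, at -82 to -73 on the printed strand. Of the 32851 windows of this length, 3.0% held at least 1 such match, and the Cyba window held none. The letters GGGCGG occurred at -42 to -37 of Ncf1 on the other strand and at -24 to -19 and -6 to -1 of Cyba, and in 32.7% of all windows. TTCNNNGAA (GAS type) was found once, in Ncf1 at -88 to -80, where it overlaps the GAAANNGAAA match, and in 7.0% of all windows. CCAAT was in the Cybb window alone of the 3 (33.8% of all windows), and TATAAA in none of them (12.4% of all windows). GAGGAA, the letters of a PU.1-type site, was absent from the 3 windows but present at +10 to +15 of Cybb on the other strand, just past the start (28.3% of all windows that extend 50 bases past the start). The shorter core GGAA, which every GAGGAA match contains, was in all 3 windows and in 93.4% of all windows, and 2 of the Cybb matches overlap GAAANNGAAA matches. These 7 motifs were chosen with the expression values known, and a match describes letters, not binding.

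Ncf4 (ENSMUSG00000071715, chr15:78244801-78262580, plus strand) encodes the cytosolic adaptor that binds phosphatidylinositol 3-phosphate on phagosomes. It stood at 117, 140 and 116 CPM in WT and 124, 127 and 126 CPM in KO. All 3 KO libraries lay within the WT range. The log2 fold change was 0.02 (SE 0.08, 95% interval -0.17 to 0.21) and the adjusted p 0.853 by edgeR's quasi-likelihood test. Across the alternatives the value ran from -0.03 to 0.11, and none passed the test.

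Hvcn1 (ENSMUSG00000064267, chr5:122206804-122242297, plus strand), the proton channel gene, was the most variable of the 5 members tested. WT libraries had 139, 170 and 94.0 CPM, and KO libraries 80.0, 64.1 and 128 CPM. KO 3 lay above WT 3, so the genotypes overlapped. The means were 134 ± 38.1 and 90.7 ± 33.2 CPM (SD, n = 3 each). The log2 fold change of -0.57 (SE 0.31) had a 95% interval of -1.32 to 0.19 and an adjusted p of 0.198 by edgeR's quasi-likelihood test. It was -0.90 without KO 3 (adjusted p 0.0713), and over all alternatives it lay between -0.90 and -0.16 without passing the test. Hvcn1 shares 1574 exon bases with Tctn1 on the opposite strand, which had 8.13 to 13.02 CPM, and reads from the shared bases cannot be told apart if strand was not used in counting.

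Nos2 (ENSMUSG00000020826, chr11:78920787-78960254, plus strand) was close to absent from every library. It had 1, 5 and 3 counts in WT and 3, 1 and 2 counts in KO, or 0.0268 to 0.189 CPM. With 5 of the 6 libraries at or under 3 counts, no fold change is given, and a difference was not detectable at this depth. Nos2 did not pass the filter on low counts and is not among the 5 members tested. The other nitric oxide synthases, Nos1 and Nos3, had at most 0.138 and 0.140 CPM.

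**Figure D2:**
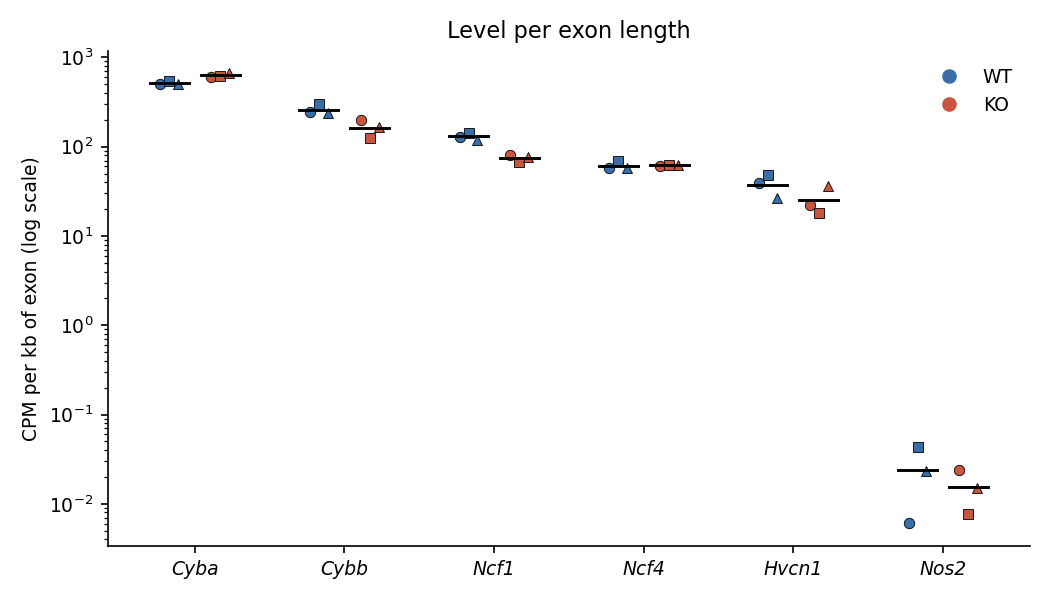
CPM per kilobase of exon (vertical axis, log scale) of the 6 members in the 3 WT libraries (blue) and 3 KO libraries (red), with horizontal lines at the means and marker shapes as in the plot of CPM by library. In both genotypes the members stand in the order Cyba, Cybb, Ncf1, Ncf4, Hvcn1, Nos2.

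Levels of different genes were compared per kilobase of annotated exon. In WT, Cyba was highest at 515 ± 25.8 CPM per kb (SD, n = 3), followed by Cybb at 260 ± 33.1 and Ncf1 at 130 ± 11.8 CPM per kb. Ncf4 followed at 61.4 ± 6.70, Hvcn1 at 37.7 ± 10.7 and Nos2 at 0.0241 ± 0.0184 CPM per kb, and no neighbours in this order overlapped between WT libraries. In KO the order was the same, at 633 ± 28.4 for Cyba, 163 ± 35.7 for Cybb and 74.3 ± 6.88 CPM per kb for Ncf1. Ncf1 in KO, at 66.6 to 79.8 CPM per kb, had come close to Ncf4, at 61.5 to 62.9 CPM per kb. Hvcn1 ranged from 18.0 to 35.9 CPM per kb in KO. Among subunits that are not members, the means in WT and KO were 97.8 and 90.2 CPM per kb for Rac1 and 66.1 and 66.2 CPM per kb for Rac2. Measured on the longest transcript instead of all exons the order of the 5 tested members was unchanged.

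Because the oxidase is a complex, the balance of its transcripts was compared as ratios of CPM per kb within each library, over the 10 pairs of the 5 tested members. Cybb to Cyba was 0.483, 0.547 and 0.481 in WT and 0.323, 0.201 and 0.249 in KO. Every KO library therefore had less catalytic subunit transcript per partner transcript than every WT library. Ncf1 to Ncf4 was 2.21, 2.07 and 2.09 in WT and 1.30, 1.06 and 1.22 in KO, again without overlap. Cyba to Ncf1 showed the widest gap, at 3.92, 3.81 and 4.17 in WT against 7.64, 9.39 and 8.68 in KO. For this pair and for Cybb to Cyba the lack of overlap was fixed by the CPM of the single genes. In each pair the 2 genes went in opposite directions without overlap. Cybb to Ncf4 (4.18 to 4.31 in WT, 1.99 to 3.20 in KO) and Cyba to Ncf4 (7.88 to 8.73 in WT, 9.90 to 10.6 in KO) did not overlap either. These 5 pairs each reached p = 0.1 in a two-sided exact permutation test, the smallest that 3 against 3 libraries can give, and 0.2 after Benjamini-Hochberg adjustment over 10 pairs. The ratio of the catalytic subunit to the organiser overlapped between genotypes: Cybb to Ncf1 was between 1.89 and 2.08 in WT and 2.46, 1.88 and 2.17 in KO (exact permutation p = 0.5). The 4 pairs with Hvcn1 overlapped as well.

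**Figure D3:**
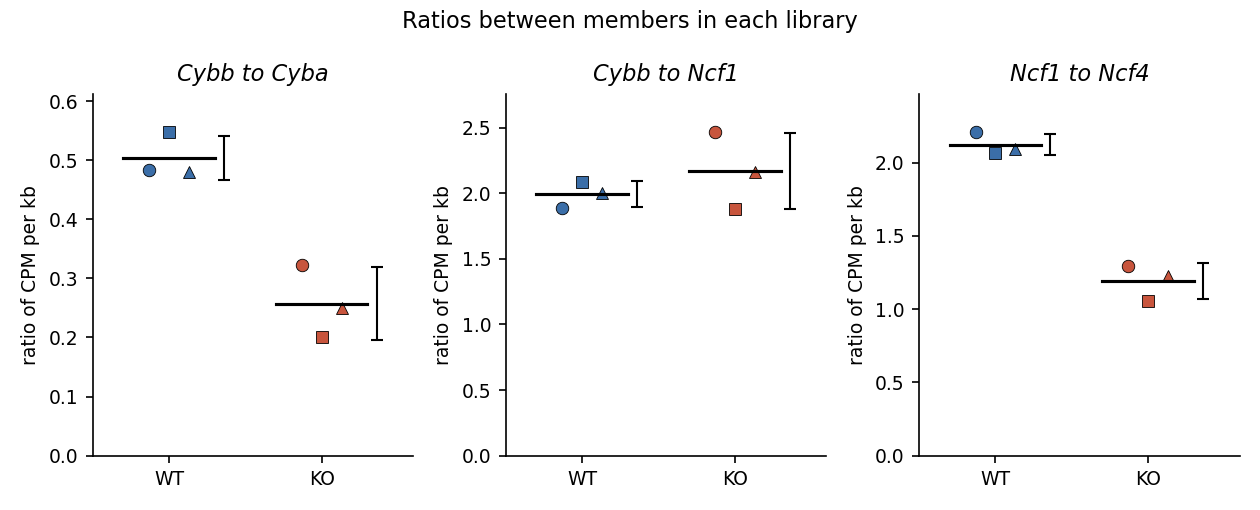
Ratios of CPM per kb of exon (vertical axis, starting at 0) for 3 pairs of members in each library, with means and bars of 1 SD over 3 libraries. Cybb to Cyba and Ncf1 to Ncf4 are lower in all KO libraries than in any WT library, and Cybb to Ncf1 overlaps, from 1.89 to 2.08 in WT and from 1.88 to 2.46 in KO.

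Over the 6 libraries log2 CPM of Cybb and Ncf1 followed each other, with a Pearson correlation of 0.95, and both ran against Cyba, at -0.75 and -0.86. Hvcn1 had a correlation of 0.74 with each of Cybb and Ncf1, and Ncf4 one of 0.07 with Cybb. These are descriptions over 6 libraries of 2 genotypes that share depth and scaling, so the genotype difference itself enters them. WT 2 had the highest WT value for each of the 6 members, and KO 2 the lowest KO value for Cybb, Ncf1, Hvcn1 and Nos2. The part of these libraries in the results was not tested beyond leaving them out.

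Among 10228 genes whose log2 CPM averaged 1 or more, those whose profile over the 6 libraries was most like that of each member were taken as a description. For Ncf1 these were Stab1 and Pxn, each with a correlation of 0.998, and Inpp5d, with 0.997. Stab1, which encodes the scavenger receptor stabilin-1, went from 3948 ± 384 to 1923 ± 249 CPM (SD, n = 3 each), and Inpp5d, a lipid phosphatase of blood cells, from 383 ± 19.1 to 262 ± 11.7 CPM. For Cybb they were Zbtb1 (0.999), Dyrk2 (0.998) and Klhl36 (0.997). Cyba was most like Rnf187 (0.998), Exosc7 (0.992) and Tars2 (0.991). Hvcn1 was most like Ddx59 (0.997), Akt1s1 (0.981) and Lrrc41 (0.975), and Ncf4 most like Slc25a22 (0.997), Zdhhc5 and Hspb11 (0.979 each). Correlations of this size were found even for Ncf4, whose genotypes did not differ by the test.

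Of the remaining subunits and regulators of the complex 8 were tested. Among them 1 fell and 1 rose, beside 16.8% and 18.5% of all genes tested. Their median log2 fold change was -0.09, beside 0.0014 for all genes tested. Cybc1 encodes the chaperone that the membrane core needs to mature, and it fell from 93.3, 97.3 and 90.5 CPM in WT to 77.2, 68.8 and 73.0 CPM in KO. No KO library reached a WT library. Its log2 fold change was -0.36 (SE 0.06) with an adjusted p of 0.00767 by edgeR's quasi-likelihood test, and it passed whichever single library was left out. Without WT 2 and KO 2 together its adjusted p was 0.0511.

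Rac2, the Rac GTPase of blood cells, had a log2 fold change of 0.00 (95% interval -0.17 to 0.18), and Rac1 one of -0.12 (adjusted p 0.157 by edgeR's quasi-likelihood test). The small GTPases Rap1a and Rap1b, at 0.00 and -0.08, and the GDP dissociation inhibitor Arhgdib, at -0.10, did not pass either. Arhgdia, the more widely expressed inhibitor of that family, which holds Rac in the cytosol, rose by 0.25 (adjusted p 0.0246), a call that held only without KO 1 among the 6 libraries left out in turn. Arhgdig had at most 0.266 CPM and was not tested.

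**Figure D4:**
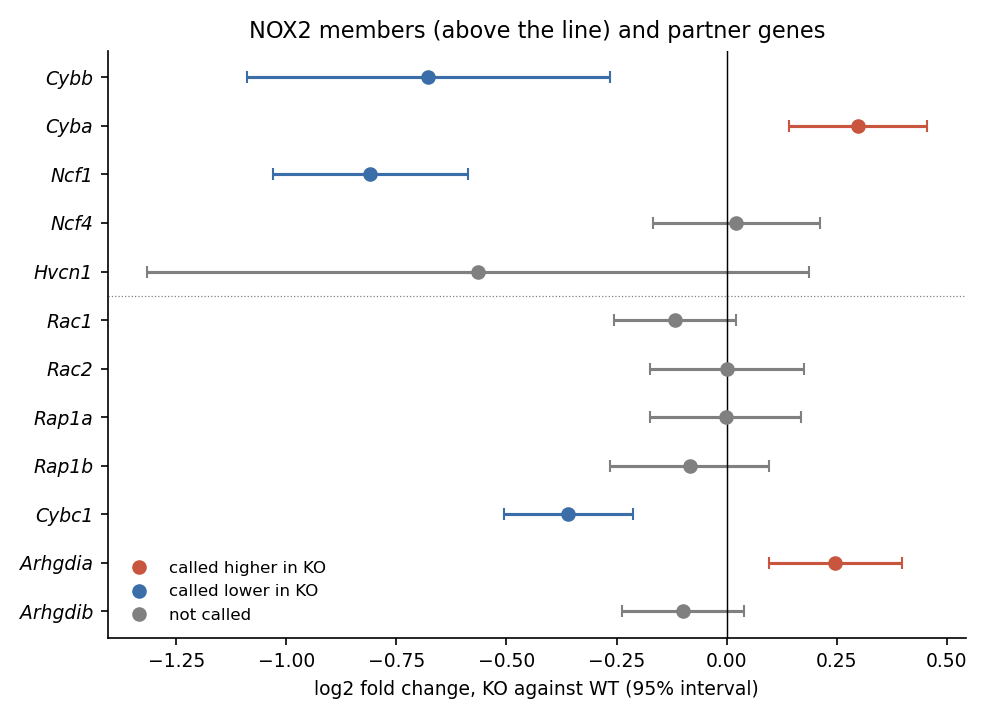
Log2 fold change of KO against WT (horizontal axis) with its 95% interval for the 5 tested members, above the dotted line, and 7 other subunits and regulators, below it. Red and blue mark genes called higher and lower by edgeR at an adjusted p under 0.05. Ncf1 and Cybb lie furthest to the left among the called genes, Cybc1 is lower by 0.36, and Rac2 and Rap1a lie at 0.

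Kinases, lipases and exchange factors that switch the oxidase on gave 7 lower and 0 higher of 25 tested by edgeR's quasi-likelihood test. All genes tested gave 16.8% lower and 18.5% higher, and the median log2 fold change of the list was -0.07. The largest fall was that of Pik3cg, the phosphoinositide 3-kinase downstream of chemoattractant receptors, from 247, 224 and 229 CPM in WT to 145, 118 and 116 CPM in KO (log2 fold change -0.88, adjusted p 0.00446). All of its KO libraries were well below the WT libraries. Prex1, an exchange factor that loads Rac with GTP, fell by 0.50 (adjusted p 0.00916), the stress kinase Mapk14 by 0.48 (0.00655) and Pik3cd by 0.43 (0.00803). These 4 passed in each of the alternatives. Prkcb, Plcg2 and Irak4 fell by 0.33, 0.31 and 0.28. Syk, the kinase behind Fc receptors and Dectin-1, had 503 ± 24.8 CPM in WT and 482 ± 31.7 CPM in KO (adjusted p 0.544). With WT 2 and KO 2 both left out, 4 kinases were lower and 2 higher.

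Other members of the oxidase family were scarcely measured. Nox3, Noxa1, Duox1, Duox2, Duoxa1 and Duoxa2 had no count in any library. Nox1, at 0.107 to 0.241 CPM in WT and 0.343 to 0.432 CPM in KO, passed the edgeR test (log2 fold change 1.37, adjusted p 0.0414) but not DESeq2 (0.134). Its call was also lost without any 1 of WT 1, WT 2, KO 1, KO 2 or KO 3. Nox1 passed the filter on low counts only through its KO libraries, with 10 to 13 counts against 3 to 7 in WT. The call is therefore not taken as a difference. Noxo1, the organiser of the Nox1 oxidase, was at 1.93 to 2.23 CPM in WT and 0.831 to 1.51 CPM in KO. Its adjusted p was 0.0524 by edgeR's quasi-likelihood test, and 12 of 16 alternatives left it uncalled. It was lower by limma-voom without (adjusted p 0.0434) and with quality weights (0.00536). By limma on the deposited signal (0.0344) and by edgeR with the stricter filter (0.0494) it was lower too.

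Ion channels and exchangers that support the oxidase or the phagosome split into 4 lower and 2 higher of 10 tested. All genes tested gave 16.8% lower and 18.5% higher, and the median of the list was -0.13. Slc9a9, an endosomal sodium-proton exchanger, fell from 304 ± 19.7 to 170 ± 43.8 CPM (log2 fold change -0.84, adjusted p 0.0153 by edgeR), a call lost without WT 1 or without KO 3. Clcn5, an endosomal chloride-proton exchanger, fell by 0.57 (adjusted p 0.00835) in all alternatives. Lrrc8a, a subunit of volume-regulated anion channels, fell by 0.38 (0.0107). Kcnn4, a calcium-activated potassium channel, rose from 82.6, 80.3 and 117 CPM in WT to 148, 232 and 222 CPM in KO (log2 fold change 1.11, adjusted p 0.0134). Its adjusted p was 0.0517 without WT 1 and 0.0523 without KO 2, and Kcnj2 rose by 0.31. With WT 1 or KO 2 left out 0 channels were higher, with WT 2 or KO 3 left out 1 was, and with KO 3 left out 2 were lower.

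Enzymes that remove superoxide and peroxide gave 6 higher, 1 lower and 6 not called of 13 tested by edgeR's quasi-likelihood test. All genes tested gave 18.5% higher and 16.8% lower, and the median log2 fold change of these enzymes was 0.33. Prdx1, a peroxiredoxin, rose from 1169, 1212 and 1254 CPM in WT to 1852, 2376 and 1996 CPM in KO (log2 fold change 0.78, adjusted p 0.00521). Gpx1, a glutathione peroxidase, rose from 375, 376 and 448 CPM to 626, 772 and 676 CPM (0.79, 0.00543). For both genes the lowest KO library was well above the highest WT library. Sod1, the cytosolic superoxide dismutase, rose by 0.42 (adjusted p 0.0107), and Prdx2, Prdx3 and Prdx4 by 0.33, 0.35 and 0.41. Cat, the catalase of peroxisomes, went the other way, from 646, 725 and 671 CPM in WT to 482, 421 and 473 CPM in KO (log2 fold change -0.57, adjusted p 0.00556). Gpx1, Prdx1 and Cat passed in all alternatives. The higher count was 5 to 7 with 1 library left out and 3 without WT 2 and KO 2, and the lower count was 2 without KO 2.

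The genes around nitric oxide synthesis were examined as well. Of 11 tested partners of the synthases, 3 rose and 0 fell (median 0.29), beside 18.5% and 16.8% of all genes tested. Calm2 and Calm3 encode calmodulin, which the inducible synthase binds permanently. Calm3 rose by 0.29 (adjusted p 0.0129 by edgeR, lost without WT 1), and Calm2 had a log2 fold change of 0.11 (adjusted p 0.145). Spsb4, at 0.857 to 1.52 CPM in WT and 2.0 to 6.11 CPM in KO, passed with an adjusted p of 0.0349 that was lost without any 1 of WT 1, WT 2, WT 3, KO 2 or KO 3. The higher count was 1 without WT 1 and 5 without KO 1.

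Arginine, the substrate of the synthase, is taken up by Slc7a1 and used by the arginases and, through ornithine, by Odc1. Of 9 tested genes of arginine supply and use, 2 rose and 0 fell (median 0.25), beside 18.5% and 16.8% of all genes tested. Odc1 rose from 35.3, 32.2 and 38.6 CPM in WT to 78.5, 92.0 and 84.8 CPM in KO, a log2 fold change of 1.27 (adjusted p 0.00398 by edgeR's quasi-likelihood test). Slc7a1 went from 21.7, 23.4 and 30.7 CPM to 52.7, 71.3 and 62.8 CPM, a log2 fold change of 1.30 (adjusted p 0.00552). No library of one genotype reached the other for either gene, and both passed in all alternatives. Without KO 1, 1 gene of the list was lower. Arg1 had at most 0.275 CPM. Slc3a2, the heavy chain of several amino acid carriers, had 264 ± 31.9 and 312 ± 39.1 CPM (adjusted p 0.146).

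Tetrahydrobiopterin is the cofactor of nitric oxide synthases, made and recycled by a short set of enzymes. Among all genes tested 18.5% were called higher and 16.8% lower. Of the 7 tested in this set, 4 rose and 0 fell by edgeR's quasi-likelihood test (median 0.34). Gch1, the first and rate-limiting enzyme, was not among them: its log2 fold change was -0.04 (adjusted p 0.822). Pcbd2 rose by 0.44 (0.00766), Spr, which makes the cofactor in the last step, by 0.41 (0.0137, lost without WT 1 or KO 3) and Qdpr, which recycles it, by 0.34 (0.0160, lost without WT 2 or KO 3). The higher count was 2 without WT 1 and 2 without KO 3. Without KO 1, or without KO 2, 1 gene was lower.

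Transcription factors known to act on these genes gave 9 lower and 0 higher of 20 tested by edgeR's quasi-likelihood test. All genes tested gave 16.8% lower and 18.5% higher, and the median of the list was -0.31. Irf1, an interferon-induced activator of Nos2 and Cybb, had 120, 170 and 112 CPM in WT and 92.0, 71.3 and 78.1 CPM in KO (log2 fold change -0.74, adjusted p 0.0227). KO libraries were all lower, and WT 2 was the highest. WT 2 was the highest WT library for Cybb too, but also for Cyba, which rose, and Ncf4, which was not called. The shared peak is therefore not particular to Cybb, and a link between Irf1 and Cybb was not tested. The call for Irf1 was lost without KO 2 or without KO 3. Irf8, a macrophage factor that binds with PU.1, fell by 0.30 (adjusted p 0.0291, lost without any 1 of WT 1, WT 2, KO 2 or KO 3). Nfkbia, the inhibitor of NF-kappa-B, fell by 0.52 (0.0408), and the coactivators Crebbp and Ep300 by 0.47 (0.0131) and 0.37 (0.0221). With 1 library left out Nfkbia passed only without WT 3 or KO 1, Ep300 only without KO 1, and Crebbp in all cases except WT 1 and KO 3. Spi1, which encodes PU.1 itself, was level at 372 ± 22.3 and 375 ± 14.7 CPM (log2 fold change 0.01, adjusted p 0.929). The lower count depended strongly on the libraries, at 1 without WT 1, 3 without WT 2, 2 without KO 2, 0 without KO 3 and up to 12 in the other cases of 1 library left out.

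Receptors and Janus kinases through which interferons and microbial products induce Nos2 and Cybb gave 10 lower and 0 higher of 16 tested. All genes tested gave 16.8% lower and 18.5% higher, and the median of the list was -0.30. Ifngr1, the ligand-binding chain of the interferon-gamma receptor, fell from 374, 387 and 348 CPM in WT to 281, 195 and 232 CPM in KO (log2 fold change -0.65, adjusted p 0.0114 by edgeR's quasi-likelihood test). The genotypes did not overlap, and Ifngr1 passed in all alternatives. The same held for the kinase Tyk2, which fell by 0.42 (adjusted p 0.00893). Tlr2, the receptor for bacterial lipopeptides, had the largest fall, from 236, 296 and 192 CPM to 157, 65.8 and 101 CPM (log2 fold change -1.16, adjusted p 0.0361), but it passed only without WT 3 or without KO 1 when 1 library was left out. Jak1 fell by 0.32 (adjusted p 0.0122, lost without WT 1) and Jak2 by 0.43 (0.0305, again passing only without WT 3 or KO 1). Cd14, the lipopolysaccharide co-receptor, fell by 0.33 (0.0455), a call that needed each of WT 1, WT 3, KO 1 and KO 3. With WT 1 left out 2 were lower, with WT 2 or KO 2 left out 4, with KO 3 left out 3, and with upper-quartile scaling 6.

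**Figure D5:**
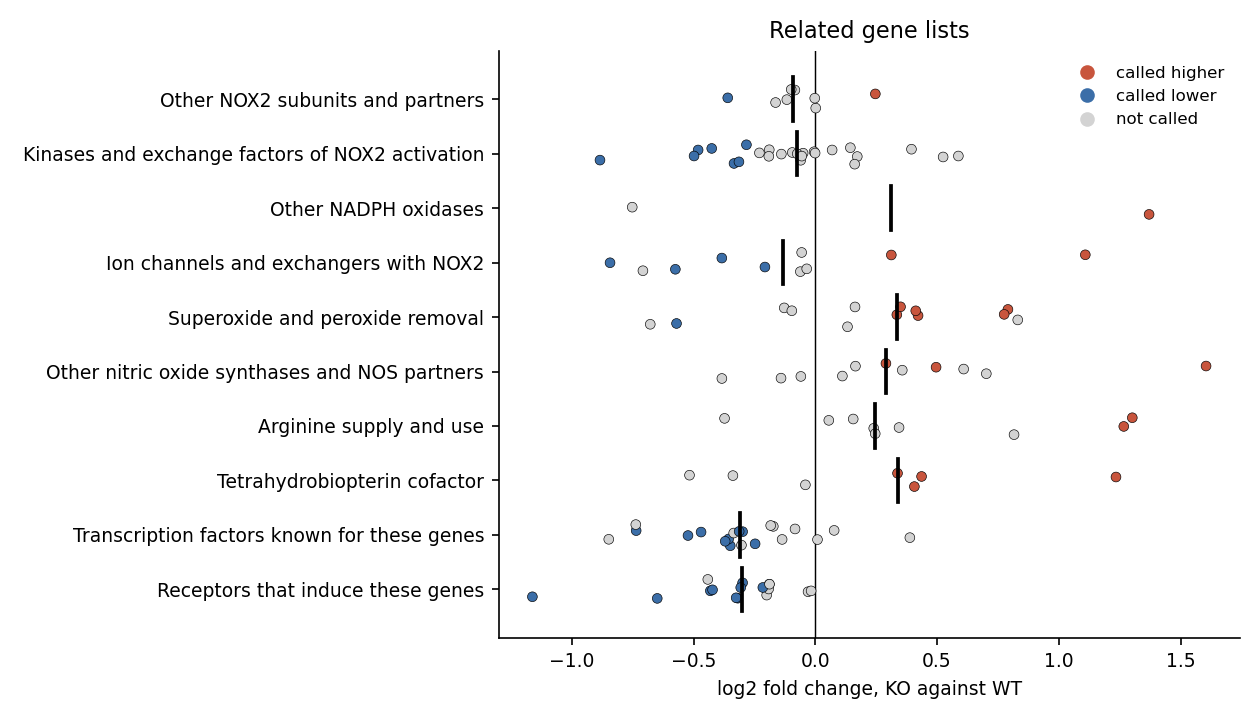
Log2 fold change of KO against WT (horizontal axis) for each tested gene of the 10 related lists (1 line of points each), with a black bar at the median of each list. Red and blue points were called higher and lower by edgeR, grey ones were not called. The lists of removal enzymes, synthase partners, arginine and cofactor genes have medians of 0.25 to 0.34, and the lists of transcription factors and receptors medians of -0.31 and -0.30.

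Over the 10 lists 51 of 121 tested genes were called, or 42.2%, beside 35.2% of all genes tested. Leaving out single libraries moved this number between 25 (without WT 1 or without KO 3) and 62, with 30 without WT 2 and 33 without KO 2. Leaving out WT 2 and KO 2 together gave 20. In the 6 lists where edgeR called 0 genes in one direction, apart from the other oxidases, DESeq2 and limma-voom called 0 in that direction too. Limma-voom with quality weights called 1 lower synthase partner, 1 lower arginine gene and 2 lower cofactor genes there. Upper-quartile scaling called 1 higher kinase, and the deposited signal 1 lower cofactor gene. At an unadjusted p under 0.05 edgeR found 1 higher kinase, 1 lower synthase partner and 1 lower cofactor gene, and 0 lower arginine genes, higher transcription factors or higher receptors.

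Markers of the cultured cells were read beside these results. Of 10 macrophage markers tested, 5 were lower and 1 higher, beside 16.8% and 18.5% of all genes tested. Their summed level was 32890 to 35490 CPM in WT and 20420 to 26230 CPM in KO. Adgre1, the gene of the F4/80 antigen, was high in every library, at 1211 to 1731 CPM. Lyz2, the lysozyme gene, fell by 0.57, the growth factor receptor Csf1r by 0.70 and the mannose receptor Mrc1 by 1.11, while Cd68 rose by 0.32. The 8 monocyte markers summed to 1508 to 1858 CPM in WT and 607 to 1026 CPM in KO, mostly through F13a1 (log2 fold change -1.46), and 1 was lower and 1 higher. Neutrophils express the same oxidase at high level. Of their 13 markers 12 were tested, with 1 lower and 0 higher. The 13 summed to 72.9, 142 and 69.1 CPM in WT and 110, 71.9 and 152 CPM in KO, and included Ly6g at 0.0343 to 0.266 CPM. WT 2 was the highest WT library and KO 2 the lowest KO library for this sum. KO 1 and KO 3 nevertheless lay above WT 1 and WT 3, and the median log2 fold change of the 12 tested was 0.60. Summed dendritic cell markers were 36.4 to 64.0 CPM in WT and 101 to 246 CPM in KO, nearly all of it Itgax, with 1 of 5 tested higher. Eosinophil markers rose in 2 of 3 tested, Ccr3 and Prg2, with sums of 8.68 to 15.3 and 23.8 to 35.8 CPM and Il5ra at 0 in all libraries. The erythroid Alas2 and Car1 and the stromal Dcn and Lum had no count in any library. Over all libraries erythroid markers summed to 0.0997 to 0.281 CPM, and fibroblast and stromal markers to 2.42 to 5.07 CPM. Endothelial markers summed to 6.14 to 20.9 CPM, and T and NK cell markers to 12.1 to 18.8 CPM. B cell markers summed to 79.1 to 88.2 CPM in WT and 93.2 to 97.6 CPM in KO, with 0 of 2 tested called. Mast cell and basophil markers summed to 1.03 to 1.96 CPM in WT and 2.49 to 3.4 CPM in KO, with 1 of 3 tested higher and Tpsb2 at 0 in all libraries. The part of the cells behind any of these marker lists in the results for Cybb, Ncf1 and Cyba was not tested.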

How the data were processed

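RNA-seq of 3 WT and 3 KO cultures was grouped by the genotype in the labels, and replicates were numbered in sample order. The tools DRAGEN and DESeq2 and the build mm10 are named, per the submitters' processing notes. The sources used here give no version, annotation, counting method or strand setting, so overlapping genes may share counts (the libraries are directional, per the labels' protocols). The deposited counts are whole numbers for 42256 Ensembl genes, all matched to the GENCODE annotation of GRCm38 (mm10). A second table that the authors deposited gives a normalized signal for each gene, whose factors differ between genes, and it served as an alternative only. All per-sample columns were used (0 left aside).

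Counts were tested in R 4.3.3 with edgeR 4.0.16: filterByExpr (minimum count 10, 12862 genes kept), TMM scaling, and the robust quasi-likelihood test of KO against WT with no covariate, adjusted by Benjamini-Hochberg at 0.05 over all genes tested. The biological coefficient of variation was 0.121. The procedure was also run on simulated counts with independent noise and far fewer changed genes than were called here. That run does not show how it behaves on these libraries. Log2 CPM for correlations used a prior count of 2. Nos2 and Cdh11 failed the filter. Counts of replicate libraries differed beyond sampling noise in every pair (chi-square per degree of freedom 11.7 to 48.8). Pairs of members were compared by a two-sided exact permutation test on log2 ratios per kb of exon (scipy 1.17.1).

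Alternatives were DESeq2 1.42.0, limma-voom (limma 3.58.1) with and without quality weights, RLE, upper-quartile and plain library totals, the deposited signal (log2 of the value plus 1), no filter, a CPM of at least 1 in 3 libraries, and each library left out. Leaving out WT 2 and KO 2 together was added after seeing the data. The members, the 10 related lists, the 11 marker lists and the alternatives were chosen with earlier results of these data known. Named genes are the members, Cdh11, every measured subunit or partner, up to 4 called genes with the largest change and the 2 most abundant genes of each other list, and the 3 genes most like each member. Prkcb, Plcg2, Irak4, Kcnj2, Prdx2, Prdx3, Prdx4, Gch1, Nos1, Nos3, Arg1 and the overlapping Gtf2ird2 and Tctn1 were added after their values were seen. Some genes that this rule selects are not reported here. Promoter sequences come from RefSeq on GRCm38.p6.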

Additional observations from a re-analysis of the deposited data

How the results depend on the processing

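Among the members and other named genes for which alternatives were run, none that was called changed direction. Of 80 member values under the 16 alternatives, 74 kept the call, and for 48 other named genes 657 of 767 did. Values not called in either fit were counted as kept even where the sign changed, as for Ncf4 (-0.03 to 0.11). The same held for Rac2 (-0.07 to 0.07), Rap1a (-0.08 to 0.05), Syk (-0.11 to 0.03) and Spi1 (-0.09 to 0.08). The number of members called, 3 in the main analysis, was 1 to 3 with 1 library left out: 1 without WT 1 or KO 3 and 2 without WT 2, and also 2 without WT 2 and KO 2 together. The number of all genes called, 4532, was 1979 to 5456 with 1 library left out and 1378 without WT 2 and KO 2. It was 4580 with DESeq2, 4530 with limma-voom, 6436 with quality weights, 4036 without a filter and 3732 on the deposited signal. Called genes of the related lists, 51, were 25 to 62 with 1 library left out and 20 without WT 2 and KO 2. Fewer libraries also leave fewer degrees of freedom, and the cause was not tested further. Of 320 list counts, 256 stayed within 1.5 times. The median log2 fold change of all genes moved to 0.06 with upper-quartile scaling. Levels per kb in WT by longest transcript were 318 for Cybb, 719 for Cyba, 166 for Ncf1, 84.7 for Ncf4 and 47.8 for Hvcn1, in the same order. The 5 non-overlapping pairs were also 5 on the deposited signal. Depth limits Nos2, with 1 to 5 counts per library, and Cdh11, with 4 to 11. No paired analysis was possible because the labels give no replicate numbers shared by the genotypes.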
